A study of Homo sapiens with 9 samples.

Results

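The genes described here are the expressed members of the large family of human zinc finger genes that carry ZNF and a number as their symbol. Of 425 such genes on the array, 155 (36.5%) had a mean intensity of 50 or more over the 9 arrays, measured by the brightest probe set that names only that gene. They make up 155 of 19775 genes measured, and the same intensity was reached by 44.7% of all genes (8837 genes). The cells were HT1080, an established human fibrosarcoma line, grown on top of a thick gel of fibrillar bovine dermal collagen. The gel was set at 1.7 mg/ml for 4 h, and the cells then adhered for 24 h in medium with 10% serum. Protease inhibitors were then added in combination and the cells were treated for 4 h or 24 h, or were left untreated, with 3 arrays in each group. The comparisons asked how the treated cells at either time differed from untreated cells, and from each other.

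The mix held GM6001, which blocks matrix metalloproteinases, at 100 µM, pepstatin A, which blocks aspartic proteases, at 50 µM, and E64, which blocks cysteine proteases, at 250 µM. Aprotinin and leupeptin, inhibitors of serine and of serine and cysteine proteases, were each at 2 µM. Untreated arrays carry a vehicle in their titles, and neither that vehicle nor the harvest time of those cells is stated in the labels. The series design text speaks of kinase inhibitors, whereas its title and the treatment protocol name protease inhibitors, and the protocol was followed. The design text calls the replicates biological, and all 3 groups are of the same cell line, so p-values measure the spread between these cultures of 1 line. In RNA from whole cultures, fewer cells that make a transcript and less of it per cell cannot be told apart.

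Most proteins of this family bind DNA through tandem C2H2 zinc fingers, small folds held by a zinc ion, and each finger reads a few bases. Many also carry a KRAB domain, which recruits TRIM28, also called KAP1. Through TRIM28 come the histone methyltransferase SETDB1 and heterochromatin proteins, which silence transposable elements and some genes. Many family members lie in clusters on chromosome 19 that arose by repeated duplication, so that their sequences are alike and probe sets of neighbouring copies may share transcripts.

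Values are linear intensities, and differences are in log2(intensity + 16) with the standard error of a limma model over all 9 arrays, on which the change of dim genes is understated. A gene was called where its limma p was under 0.05 after Benjamini-Hochberg adjustment across the 19775 genes. Of the markers of connective tissue cells, 8 of 10 had a mean of 50 or more, and VIM reached 10469. Among epithelial markers, 2 of 7 did (KRT8 and KRT18), while EPCAM was at 4.0 and CDH1 at 6.5. None of 6 leukocyte and none of 6 endothelial markers reached 50. The spikes with a poly-A tail, bacterial RNAs mixed in with the sample, averaged 10.2 (log2) on 4 h arrays and 10.6 on 24 h arrays, against 9.31 on untreated arrays. The ratio of the 5′ to the 3′ probe set of ACTB, a sign of RNA integrity, averaged 0.723 on 4 h arrays and 0.697 on 24 h arrays, against 0.893 on untreated arrays. For GAPDH this ratio went the other way, with 1.07 at 4 h, 1.08 at 24 h and 1.05 untreated. Their part in the results below was not tested.

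The 155 genes were dim compared with other genes that reached 50. Their mean intensity ranged from 50.6 to 3128 with a median of 107, against a median of 242 for all 8837 genes of that brightness. They were chosen by this mean intensity. In all, 70 had a mean under 100, 34 had 200 or more and 7 had 500 or more. The highest was ZNF207 (BuGZ), a spindle protein that binds BUB3 in mitosis. Its intensities were 3147, 2844 and 3297 on 4 h arrays, 2958, 3130 and 3234 on 24 h arrays, and 3181, 3243 and 3118 on untreated arrays. These 3 groups overlapped, and ZNF207 also had the smallest SD over the 9 arrays (0.07 on the log2 scale). Its 8 other probe sets went the opposite way to the brightest, with differences above 0 at 4 h and at 24 h where the brightest had -0.04 and -0.03. The second (mean 2270) differed by 0.23 and 0.26, and the next 4, with means from 63.6 to 73.2, by 0.45 to 0.76 at 4 h. The next was ZNF622, which acts in maturation of the large ribosomal subunit in the cytoplasm. It had 1736, 1352 and 1446 on 4 h arrays, 1576, 1709 and 1706 on 24 h arrays, and 1162, 1313 and 1267 on untreated arrays, so that every treated array lay above every untreated one. Its differences of 0.27 ± 0.13 at 4 h and 0.41 ± 0.13 at 24 h (log2, SE) did not pass the test (limma adjusted p = 0.437 and 0.156). ZNF706, with means of 1160 at 4 h, 1143 at 24 h and 1356 untreated, and ZNF639, with means of 794, 779 and 730 in that order, completed the brightest 4 and overlapped between all groups. ZNF721, a KRAB gene and also among the 10 brightest, had means of 522 at 4 h, 471 at 24 h and 412 untreated and overlapped between all groups as well.

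Their brightness is therefore a description only. Just above the limit stood ZNF764 at 50.9, ZNF264 at 50.7 and ZNF665 at 50.6, and just below it ZNF775 at 49.0, ZNF341 at 48.5 and ZNF92 at 48.1. Of the 270 genes below it, 143 had a mean under the pseudocount of 16. The mean was under 50 on the 4 h arrays for 2 of the 155 genes, on the 24 h arrays for 2, and on the untreated arrays for 12. Genes that were low only when untreated could thus pass through the treated arrays, and ZNF264 (mean 27.6 untreated) and ZNF302 (41.3), both called below, are among those 12. Counts and medians over the 155 are therefore no support for a rise. Values over all 425 genes, or over the 270 dimmer ones, are given beside the main ones.

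After 4 h of inhibition 3 of the 155 genes rose and none fell by the test, ZNF275, ZNF264 and ZNF281, by 1.8-fold to 2.2-fold. Over all genes 0.238% were called higher and 0.0152% lower, and among genes of mean 50 or more 0.464% and 0.0339%. At an unadjusted p under 0.05, 37 of the 155 were higher and 4 lower, where the shares were 6.91% and 5.43% over all genes and 9.45% and 7.94% over genes of that brightness. Of the 270 dimmer numbered genes, 24 were higher and 6 lower by that p. Most of the 155 differences, but not all, were above 0. The median log2 difference was 0.15 (quartiles -0.03 and 0.34), against -0.01 for genes of mean 50 or more and 0.01 for all genes. Of the 155 genes, 108 (69.7%) were above 0, against 48.6% of genes of that brightness, and 23 were higher by 0.5 or more while none was lower by as much. Over all 425 numbered genes 4 were called higher and none lower, the median was 0.10 and 62.4% were above 0, and over the 270 dimmer ones the median was 0.04. The fourth called gene was ZNF431, which had a mean of 26.8 and a difference of 0.79 ± 0.12 (log2, SE; limma adjusted p = 0.0435). It is named because it completes that count.

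**Figure D1:**
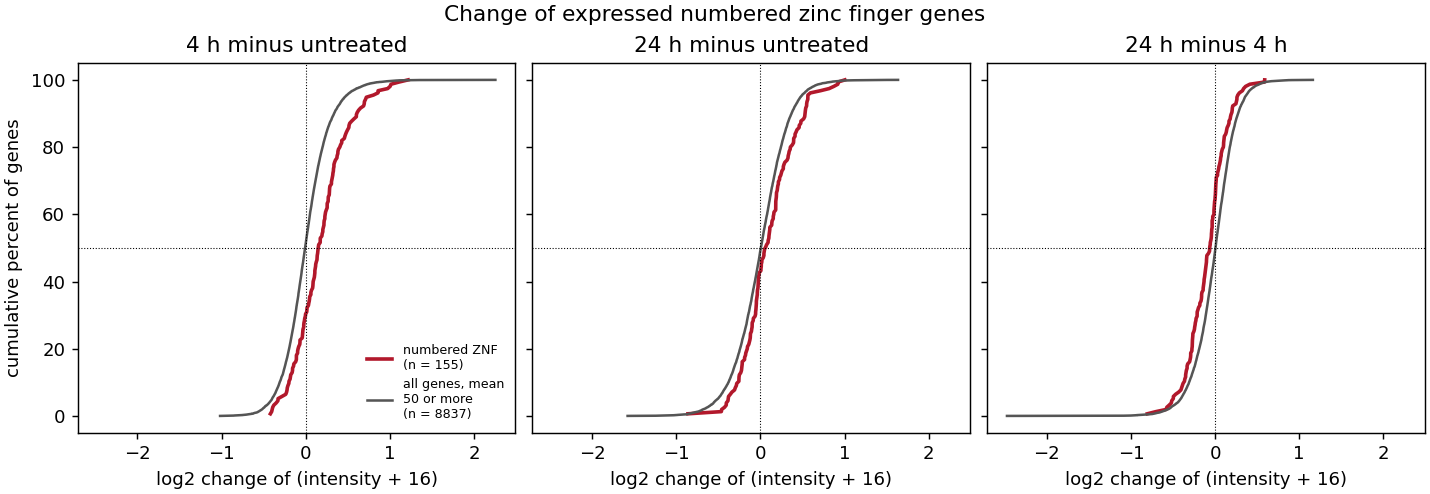
Cumulative percent of genes (vertical axis) by their log2 difference of intensity + 16 (horizontal axis) for the 155 numbered zinc finger genes (red) and all 8837 genes with a mean of 50 or more (grey), in 3 comparisons. The red curve lies to the right of the grey at 4 h (medians 0.15 and -0.01), is closer to it at 24 h (0.06 and 0.01), and lies to its left for 24 h minus 4 h (-0.06 and 0.01).

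On the arrays themselves, the median of the 155 genes ran from 6.97 to 7.05 on the log2 scale at 4 h, and was 6.92, 6.85 and 6.89 when untreated. All 3 arrays at 4 h lay above all 3 untreated arrays. The median of genes of mean 50 or more was 8.02, 8.03 and 8.01 at 4 h and at most 8.01 when untreated. The 4 h array with the highest median of the 155 was also the one with an ACTB ratio of 0.871, close to the untreated arrays, where the other 4 h arrays had 0.682 and 0.615. Its GAPDH ratio was 1.05, where the other 4 h arrays had 1.10 and 1.07. Without that array the median difference at 4 h was 0.17 and 71.6% of the genes were above 0. A part of RNA integrity in this difference was not tested. Quantile normalization gave 0.13 and 67.1%, and centring each array on its median gave 0.12 and 67.1%.

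**Figure D2:**
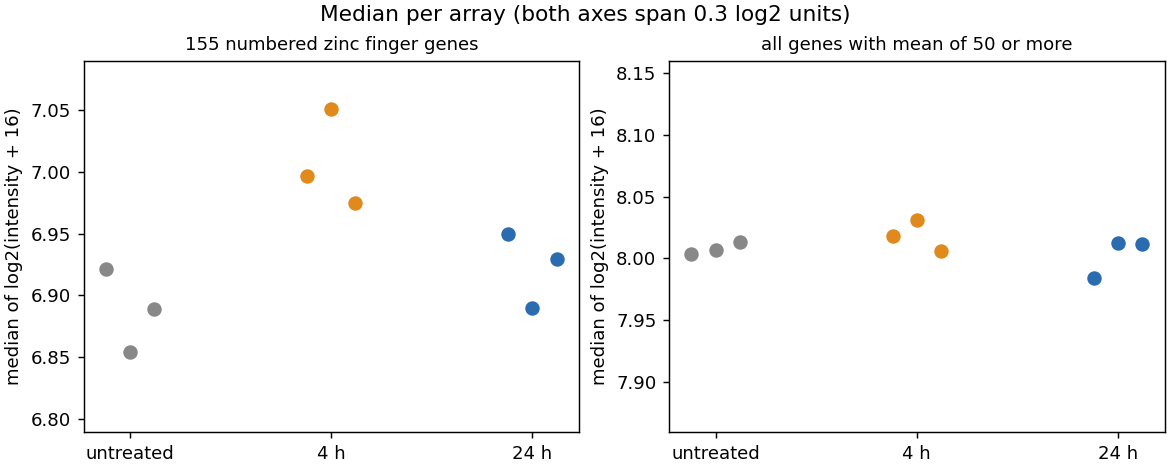
Median of log2(intensity + 16) on each array (1 point per array, 3 per group) for the 155 numbered zinc finger genes (left) and for all genes with a mean of 50 or more (right), on axes of equal span. The 4 h arrays lie between 6.97 and 7.05 on the left, above the untreated arrays at 6.85 to 6.92, with the 24 h arrays at 6.89 to 6.95.

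The medians were also taken by brightness. At 4 h the median difference was 0.20 for the 70 genes with a mean from 50 to 100, 0.14 for the 51 from 100 to 200 and 0.08 for the 34 of 200 or more, where all genes of the same brightness had 0.01, 0.00 and -0.02. At 24 h these medians were 0.11, 0.04 and 0.05, against -0.02, -0.02 and 0.02 for all genes of the same brightness. These classes use the same mean that chose the members, and the lowest holds the 12 genes under 50 when untreated, which enter it through their treated arrays. The choice of members can thus raise its medians. Related zinc finger genes also had medians above 0. The 38 ZFP, ZBTB, ZSCAN and ZKSCAN genes with a mean of 50 or more had medians of 0.16 at 4 h and 0.17 at 24 h, none called, with 84.2% and 73.7% above 0.

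ZNF275, a gene of the X chromosome (Entrez 10838), was the clearest single case. It had 221, 199 and 221 on 4 h arrays, against 106, 82.9 and 83.8 on untreated arrays. The lowest 4 h array was far above the highest untreated one. The difference was 1.11 ± 0.13 (log2, SE), 2.16-fold, with a limma adjusted p of 0.0183. The call was lost when any of 5 arrays was left out, untreated replicate 2 or 3 or any 4 h array, where the adjusted p lay between 0.0503 and 0.133 while the difference stayed between 1.06 and 1.15.

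ZNF264, a KRAB zinc finger gene of chromosome 19 (Entrez 9422), was among the dimmest members. It had 78.2, 53.9 and 59.0 on 4 h arrays, against 27.7, 26.4 and 28.6 on untreated arrays. The groups were well apart, although the untreated values lay close to the pseudocount. The difference was 0.86 ± 0.13 (log2, SE; limma adjusted p = 0.0444). ZNF281 (ZBP-99), a gene of chromosome 1 (Entrez 23528) whose protein binds GC-rich DNA and is linked to pluripotency, had 424, 472 and 539 on 4 h arrays, against 277, 220 and 198 on untreated arrays. Its arrays did not overlap either, and the difference was 1.00 ± 0.16 (log2, SE; limma adjusted p = 0.0474). The calls of ZNF264 and ZNF281 were lost without any of the 9 arrays, with adjusted p from 0.0503 to 0.194 for ZNF264 and from 0.0688 to 0.194 for ZNF281. Without each array in turn the difference of ZNF264 lay between 0.73 and 0.95 and that of ZNF281 between 0.90 and 1.13.

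The promoters of the 4 genes called in any comparison are shown because their levels moved apart most clearly. The fourth is ZNF302, described below. Each window runs from 250 bases before to 50 bases after the start of the gene in RefSeq on GRCh38.p14, is 300 bases long and reads 5′ to 3′ on the strand of the gene. Capitals mark matches, on either strand, to the GC box GGGCGG, the CCAAT box or the ETS core CCGGAAG. The windows are chrX:153333903-153334202 (plus strand) for ZNF275, chr19:57191250-57191549 (plus strand) for ZNF264, chr1:200409987-200410286 (minus strand) for ZNF281 and chr19:34677428-34677727 (plus strand) for ZNF302.
ZNF275: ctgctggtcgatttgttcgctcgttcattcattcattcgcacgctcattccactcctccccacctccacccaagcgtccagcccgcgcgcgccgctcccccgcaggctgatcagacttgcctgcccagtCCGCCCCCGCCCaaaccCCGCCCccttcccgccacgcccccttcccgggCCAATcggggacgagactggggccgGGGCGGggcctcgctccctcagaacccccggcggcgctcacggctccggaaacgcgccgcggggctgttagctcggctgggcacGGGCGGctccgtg
ZNF264: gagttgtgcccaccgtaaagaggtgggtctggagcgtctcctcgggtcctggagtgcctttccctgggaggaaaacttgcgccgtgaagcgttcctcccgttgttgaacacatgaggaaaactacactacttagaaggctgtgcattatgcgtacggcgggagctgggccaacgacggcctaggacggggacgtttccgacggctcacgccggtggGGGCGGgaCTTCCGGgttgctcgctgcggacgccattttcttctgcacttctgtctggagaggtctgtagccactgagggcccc
ZNF281: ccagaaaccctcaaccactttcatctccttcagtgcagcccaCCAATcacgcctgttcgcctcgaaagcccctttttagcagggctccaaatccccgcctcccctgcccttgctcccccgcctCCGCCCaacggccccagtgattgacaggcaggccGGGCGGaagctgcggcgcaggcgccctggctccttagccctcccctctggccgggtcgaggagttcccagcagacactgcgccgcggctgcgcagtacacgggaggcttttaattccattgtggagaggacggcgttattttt
ZNF302: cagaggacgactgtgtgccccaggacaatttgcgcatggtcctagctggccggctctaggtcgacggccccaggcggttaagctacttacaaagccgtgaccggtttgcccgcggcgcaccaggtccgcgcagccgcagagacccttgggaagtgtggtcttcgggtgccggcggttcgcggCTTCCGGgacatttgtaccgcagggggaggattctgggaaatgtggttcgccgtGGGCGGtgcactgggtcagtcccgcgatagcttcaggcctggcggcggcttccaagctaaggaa

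The windows of ZNF264 and ZNF302, both KRAB genes of chromosome 19, each held 1 GC box and 1 ETS match. Those of ZNF275 and ZNF281 held 5 and 2 GC boxes and a CCAAT box each, with no ETS match. None of the 4 held a TATAAA, a CRE or an AP-1 match.

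Other members had larger or similar differences at 4 h with more spread between arrays. ZNF451, a SUMO ligase, had the largest, with 634, 572 and 891 on 4 h arrays, against 345, 308 and 220 on untreated arrays. Its arrays did not overlap, and the difference of 1.22 ± 0.22 (log2, SE) did not pass the test (limma adjusted p = 0.0715). Its only other probe set with a mean of 50 or more (mean 85.9) differed by 0.11 at 4 h. ZNF148 (ZBP-89), the closest relative of ZNF281 and also a binder of GC-rich DNA, had 591, 602 and 795 on 4 h arrays, against 408, 310 and 252 on untreated arrays. The values did not overlap, and the difference was 1.01 ± 0.18 (log2, SE; limma adjusted p = 0.0662).

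ZNF292, a gene mutated in a neurodevelopmental disorder, had 236, 214 and 390 on 4 h arrays, against 152, 136 and 106 on untreated arrays. The third 4 h array stood above the other two, but all were above the untreated arrays, with a difference of 0.97 ± 0.22 (log2, SE; limma adjusted p = 0.128). The KRAB gene ZNF420 had 71.0, 93.3 and 126 on 4 h arrays, against 62.8, 41.0 and 40.5 on untreated arrays, a difference of 0.80 ± 0.21 (log2, SE; limma adjusted p = 0.169). ZNF697 had 578, 523 and 628 on 4 h arrays, against 333, 339 and 363 on untreated arrays, and its difference of 0.71 ± 0.14 (log2, SE) had a limma adjusted p of 0.086. In ZNF420 the highest untreated array came near the lowest 4 h array, whereas the groups of ZNF697 were far apart.

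Counted by arrays that did not overlap, 45 of the 155 genes (29.0%) were higher and 8 (5.16%) lower at 4 h, where 9.36% and 8.15% of all genes and 12.9% and 12.8% of genes of mean 50 or more were so. The choice of members can raise the higher count. Of the 270 dimmer numbered genes 11.9% were higher and 3.70% lower. Of the 38 ZFP, ZBTB, ZSCAN and ZKSCAN genes 26.3% were higher and 2.63% lower. The 8 lower genes had small differences, from -0.40 to -0.16 on the log2 scale, and none passed the test. ZNF365, a centrosomal protein, had the largest of them, with 112, 113 and 99.4 on 4 h arrays, against 143, 146 and 155 on untreated arrays (-0.40 ± 0.12, SE; limma adjusted p = 0.209). ZNF226, a KRAB gene of chromosome 19, had 187, 175 and 166 on 4 h arrays, against 213, 231 and 269 on untreated arrays, and its difference of -0.40 turned to 0.075 when the probe sets of the gene were averaged. Its second probe set (mean 51.0) differed by 0.42 at 4 h, and the remaining ones had means of only 8.29 and 3.37. The other 6 lower genes were ZNF511, ZNF512, ZNF326 of the DBIRD complex, ZNF384, a partner in leukaemia fusions, ZNF330, a nucleolar protein, and ZNF827, which brings the NuRD complex to telomeres. The brightest probe set of ZNF827 (mean 120) differed by -0.16 at 4 h, but its second (mean 118) by 0.29. The second probe set of ZNF330 (mean 156) differed by 0.01, and that of ZNF512 (mean 127) by -0.45.

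**Figure D3:**
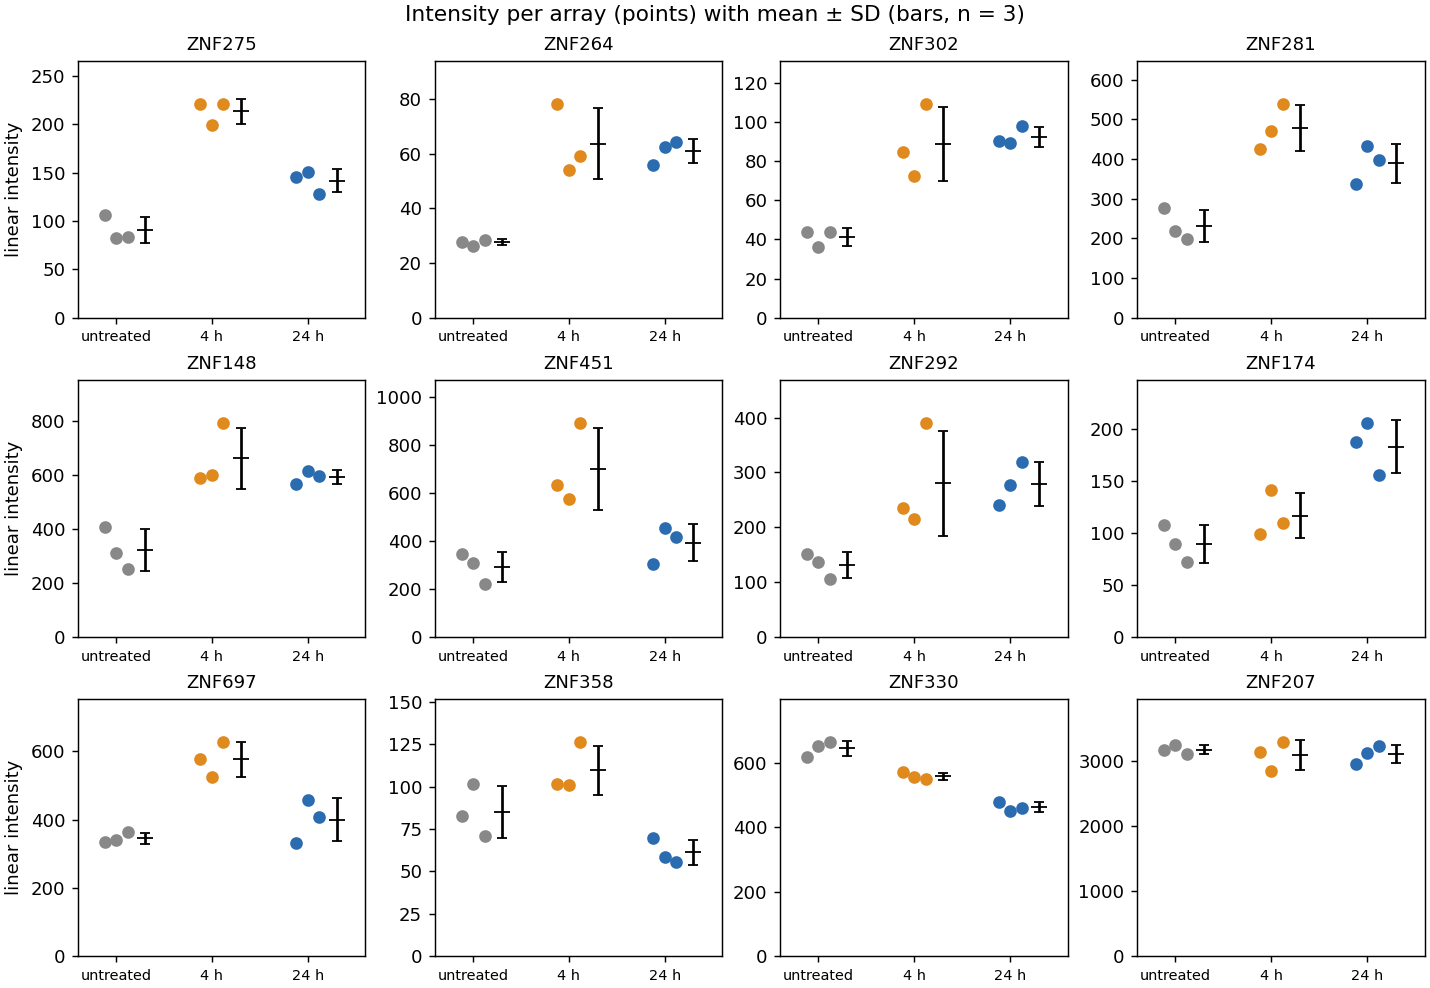
Linear intensity per array (points) with the mean and SD (bars, n = 3) for 12 numbered zinc finger genes in the untreated, 4 h and 24 h groups. The top row holds the 4 called genes, and ZNF275 lies between 199 and 221 on 4 h arrays, above all other arrays. ZNF207, the brightest, overlaps between groups, and ZNF330 is lower on 4 h and lower again on 24 h arrays.

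After 24 h the median of the family was closer to 0, and 2 of the 155 genes rose by the test, ZNF302 and ZNF264, while none fell. Both had untreated means under 50 and belong to the 155 through their treated arrays, so the count partly restates the choice of members. Over all genes 0.217% were called higher and 0.253% lower, and among genes of mean 50 or more 0.430% and 0.475%. At an unadjusted p under 0.05, 28 were higher and 9 lower, where 8.15% and 7.65% of all genes and 12.7% and 12.1% of genes of that brightness were so. Of the 270 dimmer numbered genes, 19 were higher and 11 lower by that p. The median difference was 0.06 (quartiles -0.10 and 0.29), against 0.01 for genes of mean 50 or more, and 57.4% were above 0, against 50.8%. Arrays did not overlap for 32 higher genes (20.6%) and 15 lower genes (9.68%), where 21.3% and 20.6% of genes of mean 50 or more, and 12.8% and 12.2% of all genes, were so. The share of higher genes was thus near that of genes of mean 50 or more and above that of all genes. The share of lower genes was under both. Neither background matches the members in brightness. Of the 270 dimmer numbered genes 7.78% were higher and 4.07% lower. Over all 425 numbered genes the same 2 were called higher and none lower, the median was also 0.06 and 57.6% were above 0.

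ZNF302, a KRAB gene of chromosome 19 (Entrez 55900), had 90.0, 89.0 and 98.1 on 24 h arrays, against 43.9, 36.1 and 43.8 on untreated arrays. All 24 h arrays lay about as high as each other and well above the untreated ones. The difference was 0.92 ± 0.15 (log2, SE), 1.89-fold, with a limma adjusted p of 0.0418. At 4 h it had 84.4, 72.4 and 109, and the difference from untreated was 0.86 ± 0.15 (log2, SE; limma adjusted p = 0.0555). The call at 24 h was lost when untreated replicate 1, 2 or 3, 4 h replicate 1, or 24 h replicate 1, 2 or 3 was left out, with adjusted p from 0.0602 to 0.182.

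ZNF264 had 55.8, 62.6 and 64.1 on 24 h arrays, against 27.7, 26.4 and 28.6 on untreated arrays. The groups were again apart, with a difference of 0.82 ± 0.13 (log2, SE; limma adjusted p = 0.0448). Its call at 24 h was lost when any untreated or any 24 h array was left out, with adjusted p from 0.096 to 0.184. ZNF264 was the only member called in both comparisons, which share their untreated arrays, and it passed the limit of 50 only through its treated arrays.

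Of the members that did not pass, ZNF292 had the largest difference at 24 h, with 240, 277 and 319 on 24 h arrays, against 152, 136 and 106 on untreated arrays (1.00 ± 0.22, SE; limma adjusted p = 0.0804). ZNF174, a SCAN domain protein, had 188, 206 and 156 on 24 h arrays, against 108, 89.5 and 71.8 on untreated arrays (0.92 ± 0.18, SE; limma adjusted p = 0.0549). In both genes the groups did not overlap. ZNF148 had 567, 616 and 599 on 24 h arrays, and ZNF281 had 336, 432 and 398, with differences from untreated of 0.87 ± 0.18 and 0.71 ± 0.16 (log2, SE; limma adjusted p = 0.0699 and 0.0812). The KRAB genes ZNF184 and ZNF398 followed at 0.59 ± 0.20 and 0.56 ± 0.15 (log2, SE; limma adjusted p = 0.178 and 0.123).

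On the lower side at 24 h, ZNF580 had 191, 241 and 250 on 24 h arrays, against 395, 424 and 452 on untreated arrays (-0.86 ± 0.27, SE; limma adjusted p = 0.161). Its 4 h arrays held 231, 540 and 257, so that 1 array at 4 h was higher than all untreated arrays, and ZNF580 was among the 4 most variable members. ZNF330 had 479, 449 and 459 on 24 h arrays, against 617, 651 and 664 on untreated arrays, and 570, 555 and 549 on 4 h arrays. The 3 groups of ZNF330 did not overlap with one another, and its difference at 24 h was -0.46 ± 0.10 (log2, SE; limma adjusted p = 0.0783). The neighbour of ZNF580 on chromosome 19, ZNF581, had 133, 146 and 157 on 24 h arrays, against 193, 195 and 183 on untreated arrays (-0.36 ± 0.12, SE; limma adjusted p = 0.185). ZNF692, ZNF777, ZNF703, ZNF511 and ZNF358 had differences from -0.43 to -0.38 with arrays that did not overlap. When probe sets were averaged, ZNF703 stood at 0.23 and ZNF777 at 0.13. This average of log2 values weighs dim and bright probe sets alike. The other probe set of ZNF703 had a mean of 10.3, and those of ZNF777 had 20.9, 12.4 and 6.01.

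Between 24 h and 4 h none of the 155 genes was called in either direction by limma, where 0.0253% of all genes were called higher and 0.116% lower, and 0.0453% and 0.238% of genes of mean 50 or more. At an unadjusted p under 0.05, 4 were higher and 20 lower, where 5.20% and 6.15% of all genes and 7.0% and 7.77% of genes of that brightness were so. Of the 270 dimmer numbered genes, 8 were higher and 13 lower by that p. The median difference was -0.06, against 0.01 for genes of mean 50 or more, and 36.1% were above 0, against 51.0%. Over all 425 numbered genes none was called, the median was -0.04 and 42.1% were above 0. Arrays did not overlap for 7 higher and 22 lower genes, or 4.52% and 14.2%, where 7.35% and 7.86% of all genes and 11.2% and 10.5% of genes of mean 50 or more were so. Of the 270 dimmer numbered genes 4.07% were higher and 7.41% lower.

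The smallest p belonged to ZNF358, with 69.5, 58.3 and 55.5 on 24 h arrays, against 102, 101 and 126 on 4 h arrays (-0.70 ± 0.15, SE; limma adjusted p = 0.117). ZNF226 went the other way, with 299, 247 and 273 on 24 h arrays, against 187, 175 and 166 on 4 h arrays (0.59 ± 0.13, SE; limma adjusted p = 0.122). ZNF275 had 145, 151 and 128 on 24 h arrays, against 221, 199 and 221 on 4 h arrays (-0.54 ± 0.13, SE; limma adjusted p = 0.144). In each of these 3 genes the arrays of the groups did not overlap. ZNF451 had the largest difference, with 305, 453 and 416 on 24 h arrays, against 634, 572 and 891 on 4 h arrays (-0.80 ± 0.22, SE; limma adjusted p = 0.217), but the value was 0.0033 when its probe sets were averaged. Its second probe set (mean 85.9) differed by 0.41, and the average also includes probe sets with means of 6.73 and 4.84. ZNF408, mutated in retinal disease, the KRAB genes ZNF175 and ZNF791, and ZNF697 and ZNF800 had differences from -0.58 to -0.43. ZNF174, at 0.59 ± 0.18 (log2, SE; limma adjusted p = 0.245), ZNF277, ZNF445, which guards imprinted genes, ZNF512, ZNF16 and ZNF655 were higher at 24 h than at 4 h with no overlap.

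Over all 9 arrays the members had a median SD of 0.23 on the log2 scale (0.07 to 0.60), slightly above the 0.20 of genes of mean 50 or more. The most variable were ZNF451, ZNF292, ZNF148 and ZNF580, and the least variable ZNF207, ZNF830, ZNF827 and ZNF274, a protein that recruits SETDB1 to zinc finger gene clusters. In 84 of the 155 genes neither treated group was apart from the untreated arrays. The same count was not taken over other genes, so it describes the members only. The 110 members outside the naming rule had differences from -0.42 to 0.72 at 4 h and from -0.46 to 0.55 at 24 h, with adjusted p of 0.0869 or more at 4 h and 0.0941 or more at 24 h.

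By position, 57 of the 155 genes (36.8%) lie on chromosome 19. Their median difference was 0.23 at 4 h and 0.15 at 24 h, with 45 and 38 of 57 above 0. The 98 members on other chromosomes had medians of 0.11 and 0.01, with 63 and 51 above 0. The 460 other genes of chromosome 19 with a mean of 50 or more had medians of -0.06 at 4 h and -0.08 at 24 h, with 39.3% and 36.7% above 0. These are descriptions, and the difference between the chromosomes was not tested. In 21 pairs of members that are direct neighbours (35 genes), the sign was the same in 14 pairs at 4 h and in 11 at 24 h. The neighbours ZNF530, ZNF134 and ZNF211 on chromosome 19 had 0.65, 0.50 and 0.35 at 4 h, whereas ZNF398, at 0.70, lay beside ZNF282, at -0.07, on chromosome 7.

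Other probe sets of the same genes gave a partial check. Of the 155 members 43 had 1 probe set and 112 had more, and 41 had another probe set with a mean of 50 or more (53 probe sets). At 4 h, 38 of these 53 (71.7%) had the sign of the brightest probe set, against 64.7% for other genes of mean 50 or more. Where the brightest probe set differed by 0.5 or more, 13 of 13 had the same sign, against 80.6% for those other genes. Several of the 13 belong to the same gene, and they include a probe set of ZNF281 that differed by only 0.02. At 24 h, 29 of 53 (54.7%) had it, against 65.0%, and 9 of 12 where the difference was 0.5 or more. For 24 h against 4 h, 38 of 53 (71.7%) had the same sign, against 65.9%. Where the difference was 0.5 or more only 1 of 4 had it, against 87.1%. Over all other probe sets, dim ones included, the shares were 62.4%, 49.8% and 59.5%, against 58.7%, 59.0% and 58.3% for other genes.

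**Figure D4:**
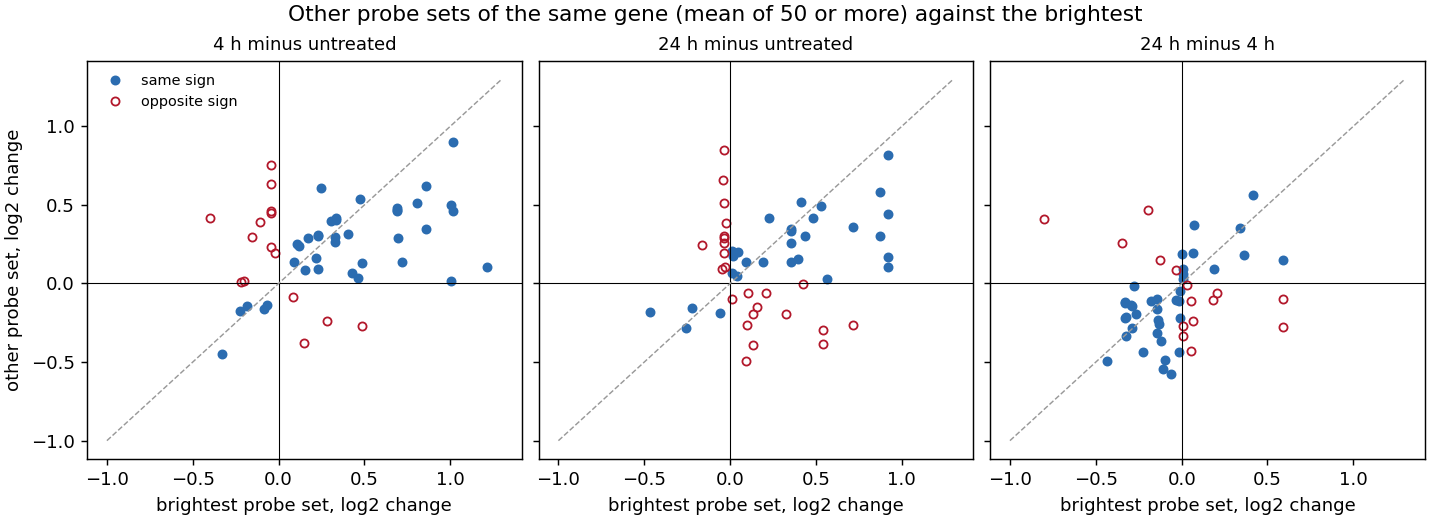
Log2 difference of each other probe set with a mean of 50 or more (vertical axis, 53 probe sets of 41 genes) against that of the brightest probe set of its gene (horizontal axis) in 3 comparisons, with equal values on the dashed line. Filled points share the sign of the brightest probe set, 38 of 53 at 4 h, 29 at 24 h and 38 for 24 h minus 4 h.

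The other probe sets of the called genes were dimmer and differed less. The other probe set of ZNF275, with a mean of 48.2, differed by 0.21 at 4 h and by -0.04 at 24 h. Those of ZNF264 had means of 16.3 and 3.26 and differed by -0.01 and 0.12 at 4 h, at levels where the values cannot be told from background. For ZNF281 the second probe set (mean 242) differed by 0.50 and the third (mean 102) by 0.02 at 4 h. For ZNF302 the second probe set (mean 59.3) differed by 0.10 and the third (mean 50.5) by 0.82 at 24 h. ZNF148 had differences of 1.01, 0.46 and 0.90 at 4 h over its 3 brightest probe sets, all in the same direction.

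The largest gaps at 24 h were in ZNF24, ZNF394, ZNF281 and ZNF174. In ZNF24, a SCAN domain protein, the brightest probe set differed by 0.54 and the next 2 by -0.29 and -0.38. In ZNF394 the values were -0.04 and 0.66, in ZNF281 0.71, 0.36 and -0.26, and in ZNF174 0.92, 0.44 and 0.17. In ZNF24 and ZNF281 the probe sets thus disagreed in sign, and in ZNF174 only in size. By the type of probe set, 107 members were measured by a set made for 1 gene, 31 by a set marked as shared between transcripts, 1 (ZNF451) by a set for several transcripts of 1 gene, and 16 by a set marked as open to cross-hybridization. The median differences at 4 h were 0.13 for the first class, 0.17 for the shared class and 0.23 for the class open to cross-hybridization, and at 24 h they were 0.02, 0.18 and 0.14.

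The cofactors of KRAB zinc finger proteins had median differences just under 0. Of 26 listed genes of this machinery, which covers TRIM28, SETDB1, heterochromatin proteins, the NuRD and HUSH complexes and DNA methylation, 23 were measured, all with a mean of 50 or more. None was called in any comparison by limma, with 1 higher and 2 lower at an unadjusted p under 0.05 at 4 h, 1 and 5 at 24 h, and 2 and 3 between 24 h and 4 h. The shares of genes of mean 50 or more were 9.45% higher and 7.94% lower at 4 h, 12.7% and 12.1% at 24 h, and 7.0% and 7.77% between the times. The median differences of the cofactors were -0.06 at 4 h, -0.09 at 24 h and -0.10 between 24 h and 4 h, with 39.1%, 26.1% and 34.8% above 0. Arrays did not overlap for 13.0% higher and 21.7% lower at 4 h, against 12.9% and 12.8% of genes of mean 50 or more. At 24 h these shares were 8.70% and 26.1%, against 21.3% and 20.6%. TRIM28 had 1991, 2459 and 1780 on 4 h arrays, 1716, 2018 and 2033 on 24 h arrays, and 2060, 2248 and 1994 on untreated arrays, with overlap between all groups. SETDB1 had 109, 117 and 63.6 on 4 h arrays, 109, 101 and 108 on 24 h arrays, and 88.3, 92.7 and 120 on untreated arrays, which also overlapped. The differences at 4 h were -0.03 ± 0.15 for TRIM28 and -0.07 ± 0.20 for SETDB1 (log2, SE; limma adjusted p = 0.969 and 0.93). Other cofactors differed more. At 4 h EHMT1 was at -0.53 ± 0.12, UHRF1 at -0.64 ± 0.16 and ATF7IP at 0.52 ± 0.21 (limma adjusted p = 0.124, 0.157 and 0.35). At 24 h PPHLN1 was at 0.60 ± 0.12, UHRF1 at -0.73 ± 0.16 and CHD3 at -0.71 ± 0.17 (limma adjusted p = 0.0673, 0.0749 and 0.0872).

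Promoter windows like those shown above were found in RefSeq for 137 of the 155 genes. The ETS core CCGGAAG, the letters read by ETS family factors, occurred on either strand in 64 of them (46.7%), against 22.2% of 7429 windows of genes with a mean of 50 or more and 10.7% of all 27305 windows. Among numbered zinc finger genes with a mean under 50 it occurred in 37.1% of 221 windows, and among ZFP, ZBTB, ZSCAN and ZKSCAN genes with a mean of 50 or more in 38.2% of 34. The 72 matches lay at a median position of -25.5 relative to the start, and 56 were within 100 bases of it. The windows end 50 bases after the start, and positions in windows of other genes were not taken. These positions are thus no sign of clustering particular to the members. The CRE TGACGTCA occurred in 7.30%, against 3.61% of windows of genes of that brightness and 1.98% of all windows. It occurred in 5.88% of windows of those ZFP, ZBTB, ZSCAN and ZKSCAN genes and in 2.26% of windows of the dimmer numbered genes.

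The GC box GGGCGG occurred in 70.8% of member windows, against 72.1% of windows of genes of that brightness and 44.6% of all windows. For CCAAT the shares were 43.1%, 37.5% and 35.7% in the same order, for TATAAA 2.19%, 4.90% and 12.0%, for the AP-1 site TGAGTCA 2.19%, 2.99% and 4.92%, and for the NRF1 site 2.19%, 2.73% and 1.36%. All were searched on both strands, and none of the 7 contains another. Member windows held a median of 24 CpG, against 27 for genes of that brightness and 14 for all windows. The windows share the family's duplicated ancestry, so they are not independent, and a match of letters is not a bound site.

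**Figure D5:**
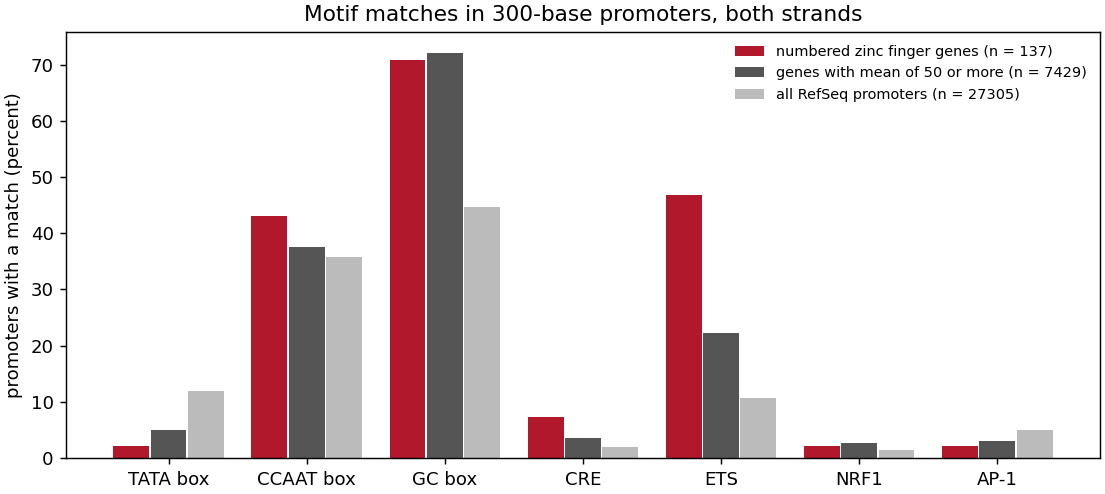
Percent of 300-base promoter windows that hold each of 7 motifs on either strand (vertical axis), for numbered zinc finger genes with a mean of 50 or more (red, n = 137), all genes of that brightness (dark grey, n = 7429) and all RefSeq windows (light grey, n = 27305). The ETS core stands at 46.7%, 22.2% and 10.7%, while the GC box is as frequent among members (70.8%) as among genes of that brightness (72.1%).

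The members were also divided by their promoter letters. At 4 h the 64 genes with an ETS match had a median difference of 0.14 and 62.5% above 0, and the 73 without had 0.17 and 75.3%. At 24 h the medians were 0.11 with and 0.07 without a match. For the 10 genes with a CRE the medians were 0.04 at 4 h and -0.02 at 24 h, and for the 127 without 0.15 and 0.10. These splits were not tested.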

How the data were processed

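RNA of 9 HT1080 cultures was hybridised to Affymetrix arrays of 54675 probe sets, from 6 µg of total RNA each, per the labels' protocols. The deposited values are linear intensities, 1 per probe set and array, whose trimmed mean is 99.4 to 99.9 on each array, so a change in total messenger RNA is not visible. The submitters' processing notes list RMA and R 2.9.2 and give neither a role. Neither the summarisation software nor detection calls are stated there. Dim values therefore have no call against background. The test had been planned with log2 values possible. The values proved linear and were used as log2(intensity + 16).

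The platform annotation named 1 gene for 41091 probe sets, several for 1801 (46 of them with a numbered ZNF gene) and none for 11721, after 62 controls were left out. Each gene took its brightest probe set. All 155 members matched RefSeq by Entrez identifier. Groups came from the titles. The 3 group means were fitted to 9 arrays (limma 3.58.1, R 4.3.3; lmFit and eBayes), with two-sided p adjusted over 19775 genes. It was tested on simulated data. Tables were made with pandas 2.3.3 in Python 3.11.15.

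The members and lists were chosen with earlier results of these data known. Named were the called genes, the 8 largest differences each way with arrays apart per comparison, the first 3 by p between 24 h and 4 h, the 10 brightest, those at the limit, the 4 most and least variable, and the 4 with the most discordant probe sets. The neighbours with values were named after they were seen. Proteins were not analysed here. The alternatives were other pseudocounts, scalings, filters, probe set rules, member limits, fits, and each array left out. The number of arrays limits the precision.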

Additional observations from a re-analysis of the deposited data

How the results depend on the processing

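Counts of called genes depended strongly on the setting, while the median differences kept their sign. The shares of all genes called under each alternative are not given here. The counts below are therefore no measure of a response of the family. The number called higher at 4 h, 3 as reported, was 0 with a pseudocount of 1, 9 with 64, 1 with arrays centred on their median, 17 when only genes with a mean of 50 or more were fitted, 1 with probe sets averaged, and 0 with the compared groups fitted alone. Leaving out an array gave 0 to 1. At 24 h, 2 as reported, the numbers higher were 0 with a pseudocount of 1, 10 with 64, 1 with centring, 19 with the filter at 50, 0 with probe sets averaged and 0 among members with a mean of 100 or more, and 0 to 3 without an array. The number lower at 24 h, 0 as reported, was 1 with a pseudocount of 64, 3 with the filter, 1 with the compared groups alone, and 0 to 1 without an array. Between 24 h and 4 h, 1 was higher and 3 lower with a pseudocount of 64, and 1 and 4 with the filter. With the filter fewer genes are tested and dim ones leave the estimate of the spread; the cause of the other changes was not tested.

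The median at 4 h, 0.15, was 0.11 with a pseudocount of 64, 0.12 with centring, and 0.12 to 0.17 without an array. At 24 h it was 0.054 to 0.10 without an array, and between 24 h and 4 h it was -0.11 among members with a mean of 100 or more. Counting all other probe sets put the same-sign shares at 62.4%, 49.8% and 59.5%. Deviations from the group means were correlated over all genes between arrays of different groups. Same-numbered arrays gave -0.05 to 0.06 and differently numbered arrays -0.05 to 0.08. These low values do not settle whether the replicate numbers pair the samples. A fit with the replicate number as a block called 0 members at 4 h and 0 at 24 h. Of 799 values of named genes under alternatives 794 kept their direction, and the 5 that turned all came from averaging probe sets. Most named genes were chosen for arrays that did not overlap. Leaving out an array or changing the pseudocount could not turn the direction of those. The count is therefore no support for them. With probe sets averaged, ZNF226 at 4 h was 0.075, ZNF703 and ZNF777 at 24 h 0.23 and 0.13, and between 24 h and 4 h ZNF451 was 0.0033 and ZNF655 -0.038. These averages of log2 values weigh dim and bright probe sets alike. The planned features of proteins were not run. Dim values, few arrays and the undefined harvest time of untreated cells limit all results.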
